A study of Homo sapiens with 12 samples.

Results

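The genes described here write, maintain, read and remove methyl groups on DNA. The set was a fixed list of 8 genes: the DNA methyltransferases DNMT1, DNMT3A and DNMT3B, the adaptor UHRF1, the dioxygenases TET1, TET2 and TET3, and the methyl-CpG binding protein MBD2. Symbols were paired with the Ensembl gene identifiers of the count table, which matched 7 of the 8 genes among 62069 identifiers. UHRF1 was not matched to an identifier of the table, so no value is given for it. Of the 7 matched genes, 6 had enough reads to be tested; TET3 did not pass the low-count filter and is given by its reads.

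RNA was sequenced from IMR90 ER:RAS cells, which are fetal human lung fibroblasts with an inducible RAS: the oncoprotein is joined to a hormone-binding piece of the oestrogen receptor and becomes active when 4-hydroxytamoxifen (4OHT) binds it. There were 12 libraries in 3 groups of 4, all of cells at passage 15 and day 6. The DMSO group (libraries 17 to 20) received the solvent, the 4OHT group (libraries 21 to 24) received 100 nM 4OHT, and the 4OHT+3DA group (libraries 29 to 32) received 4OHT together with 3-deazaadenosine (3DA). The series design calls the first group non-senescent and the second senescent. All groups carry ER:RAS; no cells without it were given 4OHT and no group was given 3DA alone, so RAS and 4OHT as a drug cannot be told apart. For 3DA no dose is stated in the labels. Whether the replicates were separate cultures is not stated either; p-values then cover just the spread among these samples, which may be technical.

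As background, DNMT3A and DNMT3B place methyl groups on unmethylated CpG dinucleotides, and DNMT1 copies the marks to the new strand after replication, guided there by UHRF1. TET enzymes oxidise 5-methylcytosine, which starts its removal, and MBD2 recruits the NuRD deacetylase complex to methylated DNA. All DNMTs take the methyl group from S-adenosylmethionine and release S-adenosylhomocysteine, the product that AHCY clears; 3DA is known to inhibit AHCY. DNA methylation itself was not measured in these samples.

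The shallowest library held 9451160 counted reads and the deepest 19291493. Mean depth was lowest in the DMSO group (11.3 M), higher in the 4OHT group (13.8 M) and highest in the 4OHT+3DA group (17.1 M). Counting noise alone did not account for the differences within any of the 18 replicate pairs. The chi-square per degree of freedom, which grows with spread beyond counting noise, was 3.16 to 8.32 within DMSO and 3.92 to 6.77 within 4OHT. Within 4OHT+3DA it was 10.4 to 42.6, and the pairs with library 31 gave 42.4, 21.1 and 42.6. By this measure the 4OHT+3DA libraries were less alike than those of the other groups, but it also grows with depth, which was highest there. Spearman's rank correlation of the counts did not set them apart. It was 0.8903 to 0.8925 within DMSO, 0.8927 to 0.8948 within 4OHT and 0.8915 to 0.8959 within 4OHT+3DA. The 10 fibroblast markers summed to 14568 to 16239 CPM with DMSO, 9824 to 11022 with 4OHT and 9485 to 10757 with 4OHT+3DA. The 8 immune markers summed to at most 1.12 CPM, with CD3E and ITGAM at 0 reads, and the 7 endothelial markers to at most 10.3 CPM, with PECAM1 and CDH5 at 0 reads. The 8 epithelial markers, which include keratins that fibroblasts express at a low level, summed to 124 to 147 CPM with DMSO, 55.1 to 59.9 with 4OHT and 41.9 to 53.7 with 4OHT+3DA; their part in the results was not tested.

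Expression is given as CPM, that is counts scaled to a common effective library size (TMM). Means are over the 4 libraries of a group, with the SD. A gene is said to have risen or fallen where the Benjamini-Hochberg adjusted p of edgeR's quasi-likelihood test, over all 13248 genes tested, was under 0.05. In bulk RNA, fewer cells expressing a gene and less RNA per cell cannot be told apart.

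The comparison of 4OHT with DMSO asks how the DNA methylation genes differed when 4OHT was given, which switches RAS on. Of the 6 tested genes, 5 fell, namely DNMT1, DNMT3A, DNMT3B, TET1 and TET2, and 0 rose; MBD2 was not called. Of all genes tested, 52.0% were called, with 25.5% lower and 26.5% higher. The ranges of the 4OHT and DMSO libraries did not overlap for 4 of the 6 (DNMT1, DNMT3B, TET1 and TET2), against 51.5% of all genes. The median log2 fold change of the 6 genes was −0.63, against −0.01 for all genes tested.

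DNMT1 (ENSG00000130816), the maintenance methyltransferase, had the most reads of these genes and the highest level per length. With DMSO its libraries stood at 96.8, 102, 101 and 100.3 CPM. With 4OHT they stood at 64.0, 72.4, 59.2 and 70.7 CPM. Every 4OHT library lay below every DMSO library. The mean fell from 100.0 ± 2.28 to 66.6 ± 6.10 CPM, a log2 fold change of −0.59 (SE 0.08; 95% interval −0.76 to −0.41; edgeR adjusted p = 6.7e-06). The call held in all 21 alternative settings, with log2 fold changes of −0.74 to −0.53.

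DNMT3B (ENSG00000088305), a de novo methyltransferase, was at a low level and fell further in proportion. Its DMSO libraries held 28, 39, 39 and 28 reads, or 2.74, 2.93, 3.60 and 2.05 CPM. Its 4OHT libraries held 3, 11, 21 and 12 reads, or 0.290, 0.878, 1.45 and 0.801 CPM. The ranges did not overlap, although library 21 rested on 3 reads. The log2 fold change was −1.67 (SE 0.36; 95% interval −2.41 to −0.92; edgeR adjusted p = 6.1e-04).

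DNMT3A (ENSG00000119772), the other de novo enzyme, showed a smaller and less certain difference. It stood at 6.66, 5.41, 5.36 and 7.48 CPM with DMSO and at 3.87, 3.51, 4.15 and 5.403 CPM with 4OHT. The highest 4OHT library, 24, lay above the lowest DMSO library, 19, so the ranges overlapped slightly. The log2 fold change was −0.55 (SE 0.20; edgeR adjusted p = 0.0263). The call ended without DMSO library 17 or 20 or 4OHT library 21, 22 or 23, where the log2 fold change was −0.53 to −0.46.

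TET1 (ENSG00000138336), an oxidising enzyme known from stem cells and germ cells, had the largest fall of the 6 tested genes. Its DMSO libraries stood at 2.45, 4.204, 4.34 and 4.92 CPM and its 4OHT libraries at 0.774, 0.319, 1.11 and 0.801 CPM, from 4 to 16 reads each. The lowest DMSO library was above the highest 4OHT library. Mean TET1 was 3.98 ± 1.06 CPM with DMSO and 0.750 ± 0.324 CPM with 4OHT. The log2 fold change was −2.39 (SE 0.34; edgeR adjusted p = 7.9e-06), 5.22-fold lower in the fit.

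TET2 (ENSG00000168769), which lacks the DNA-binding CXXC domain of its relatives, stood at 12.6, 7.73, 7.39 and 7.41 CPM with DMSO and at 5.32, 5.67, 6.36 and 4.47 CPM with 4OHT. The ranges did not overlap, but DMSO library 17 lay far above the other 3. The log2 fold change was −0.68 (SE 0.22; edgeR adjusted p = 0.0159). Without DMSO library 17 it was −0.46 (adjusted p = 0.0883), and the call also ended without 4OHT library 24 (−0.59). Without DMSO library 17 the number of these genes that fell went from 5 to 3, since the call of DNMT3A ended as well.

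TET3 (ENSG00000187605), the last member of the family, went the other way at a very low level. It had 1, 2, 3 and 2 reads in the DMSO libraries and 4, 17, 7 and 12 in the 4OHT libraries. The 4OHT libraries, at 0.387 to 1.36 CPM, were all above the DMSO libraries, at 0.0980 to 0.277 CPM. Summed over the group, 40 reads against 8 gave a ratio of 4.58 (95% counting interval 2.12 to 11.3). An exact two-sided permutation test of CPM gave p = 0.0286, the smallest that 4 against 4 allows, and 0.0429 when adjusted over the 3 comparisons of TET3. The test was chosen for TET3 after the data were seen, and that adjustment leaves out the other genes. The adjusted value is therefore no support for a rise. Without the filter on low counts its log2 fold change was 2.14 (edgeR adjusted p = 0.0082).

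MBD2 (ENSG00000134046), the reader, differed by less than the spread between replicates. It stood at 3.53, 2.10, 2.49 and 2.93 CPM with DMSO and at 3.19, 2.23, 2.83 and 1.93 CPM with 4OHT, so the ranges lay over each other. Its log2 fold change was −0.12 with a 95% interval of −0.67 to 0.43 (edgeR adjusted p = 0.726), which leaves room for a difference of the size seen in DNMT1. Without DMSO library 17 its sign turned (0.0081).

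**Figure D1:**
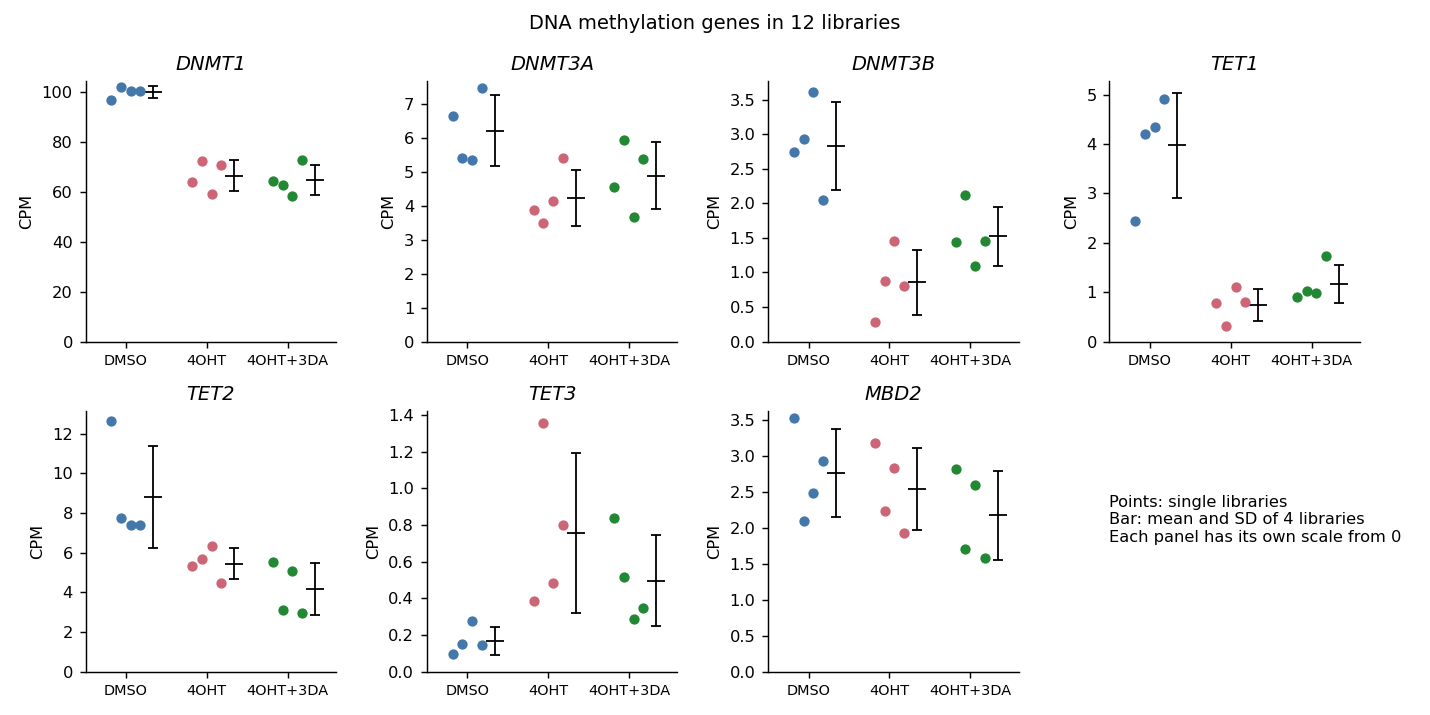
CPM of the 7 matched genes in each of the 12 libraries (points), with the mean and SD of the 4 libraries of a group as a bar; each panel has its own linear scale from 0. DNMT1 fell from 97 to 102 CPM with DMSO to between 58 and 73 CPM in all libraries of the other groups, the TET1 libraries of both groups lie below those with DMSO, and the TET3 libraries of both lie above them.

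For 3 of the genes whose DMSO and 4OHT libraries did not overlap, the 250 bases before a transcript start are shown, because CpG dinucleotides (capitals) are the sites on which this family acts. They are the first start of the gene in a RefSeq table of GRCh38.p14, in which all 8 genes matched; the only DNMT3B start in it lies inside the gene and is not shown. DNMT1 lies at chr19:10194954-10195203 on the minus strand, TET1 at chr10:68560087-68560336 on the plus strand and TET2 at chr4:105145625-105145874 on the plus strand.
DNMT1: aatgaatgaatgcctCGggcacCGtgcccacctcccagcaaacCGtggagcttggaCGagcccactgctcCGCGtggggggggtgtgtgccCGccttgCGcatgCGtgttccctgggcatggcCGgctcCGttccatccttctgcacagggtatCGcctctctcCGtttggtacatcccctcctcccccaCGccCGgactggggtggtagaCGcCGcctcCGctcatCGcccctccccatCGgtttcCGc
TET1: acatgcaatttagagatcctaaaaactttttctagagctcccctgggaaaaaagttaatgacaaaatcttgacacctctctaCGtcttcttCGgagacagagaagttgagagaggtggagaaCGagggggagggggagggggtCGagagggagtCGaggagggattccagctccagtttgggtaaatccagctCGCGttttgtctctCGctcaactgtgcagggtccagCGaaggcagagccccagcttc
TET2: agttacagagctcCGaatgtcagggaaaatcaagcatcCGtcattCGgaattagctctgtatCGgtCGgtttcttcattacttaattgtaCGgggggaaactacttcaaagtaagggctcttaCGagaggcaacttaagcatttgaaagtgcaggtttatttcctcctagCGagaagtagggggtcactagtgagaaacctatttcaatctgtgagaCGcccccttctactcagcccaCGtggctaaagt
The DNMT1 window holds 21 CpG dinucleotides, the TET1 window 9 and the TET2 window 10, against a median of 11 over 34943 such windows. A second TET2 start has 34 in its window. The letters TTTNNCGC, a form of the motif bound by the E2F factors of S phase, occurred on either strand in 2 of the 19 windows of the 8 genes, both of them windows of UHRF1, whose other window lacked it. None of the 16 windows of the 7 genes with counts held it, and 5.89% of all windows did. A window without a match says only that these letters are not in it.

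Adding 3DA, which acts on the methyl cycle, to cells given 4OHT was the next comparison, 4OHT+3DA against 4OHT. Of the 6 tested genes, 0 rose and 0 fell by edgeR's quasi-likelihood test. Of all genes tested, 26.9% were called, 14.4% higher and 12.4% lower. With just 6 genes, most at a low level, 0 calls do not set them apart from that share. At an unadjusted p under 0.05 there was 1, DNMT3B. DESeq2 and limma-voom likewise called 0. No gene of the set had ranges without overlap, against 25.0% of all genes. The largest differences were those of DNMT3B and TET1, both with a higher mean in 4OHT+3DA.

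DNMT1 stood at 64.4, 63.0, 58.6 and 73.0 CPM with 4OHT+3DA, inside almost the same range as with 4OHT. The log2 fold change was −0.04 with a 95% interval of −0.21 to 0.13 (edgeR adjusted p = 0.740). Its sign turned with library totals (0.019), without 4OHT library 22 (0.0018) and without 4OHT+3DA library 31 (0.00343). DNMT1 was the most precisely measured gene of the set, and the upper bound of its interval lies under the size of its fall with 4OHT.

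DNMT3B stood at 1.44, 2.12, 1.10 and 1.45 CPM, from 19 to 41 reads, with only library 30 clearly above all 4OHT libraries. Its log2 fold change against 4OHT was 0.79 (95% interval 0.030 to 1.55; edgeR adjusted p = 0.115). Without 4OHT library 23 it was 1.17 and was called (adjusted p = 0.0414). DNMT3A stood at 4.56, 5.93, 3.69 and 5.39 CPM, with a log2 fold change of 0.20 (95% interval −0.21 to 0.61).

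TET1 stood at 0.901, 1.03, 0.980 and 1.73 CPM, with library 32 the highest, and a log2 fold change of 0.59 (95% interval −0.19 to 1.37; edgeR adjusted p = 0.256). TET2 fell into pairs, with libraries 29 and 31 at 5.52 and 5.07 CPM and libraries 30 and 32 at 3.10 and 2.97 CPM. Its log2 fold change was −0.39 (95% interval −0.87 to 0.097; edgeR adjusted p = 0.230). MBD2 showed the same pairs, at 2.82 and 2.59 CPM in libraries 29 and 31 and at 1.70 and 1.59 CPM in libraries 30 and 32. Its log2 fold change was −0.21 (95% interval −0.76 to 0.33). Over all genes, libraries 29 and 31 were among the least alike pairs by chi-square per degree of freedom (42.4). Their Spearman rank correlation (0.8959) was the highest of any replicate pair. The pairing was not tested. TET3 had 14, 10, 5 and 5 reads, and its ratio to 4OHT was 0.656 (95% counting interval 0.402 to 1.06; exact permutation p = 0.343).

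The comparison of 4OHT+3DA with DMSO asks which of these genes still differed from cells without 4OHT. It shares its libraries with the other comparisons and is not independent of them. DNMT1, DNMT3B, TET1 and TET2 fell, 4 of the 6 tested, against 24.6% of all genes. In all 0 rose, against 27.0% of all genes, and 51.5% of all genes were called in either direction. The ranges of DNMT1, TET1 and TET2 did not overlap, 3 of the 6, against 44.7% of all genes. DNMT1 had a log2 fold change of −0.63 (SE 0.08; edgeR adjusted p = 3.0e-06) and TET1 one of −1.80 (SE 0.31; adjusted p = 7.8e-05), both called in all 21 alternative settings. TET2 fell from 8.79 ± 2.57 to 4.17 ± 1.32 CPM, a log2 fold change of −1.07 (SE 0.22; edgeR adjusted p = 5.6e-04), and here the call held without DMSO library 17. The fall of DNMT3B (−0.87, SE 0.32; edgeR adjusted p = 0.0291) was less certain. Its call ended without DMSO library 18 or 19 or 4OHT+3DA library 29, 31 or 32 (−0.85 to −0.74) and after thinning all libraries to the lowest depth (−0.77, adjusted p = 0.060).

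DNMT3A was not called against DMSO (log2 fold change −0.35, 95% interval −0.75 to 0.053; edgeR adjusted p = 0.137), although it was after thinning (−0.58, adjusted p = 0.0279). MBD2 was not called (−0.33, 95% interval −0.88 to 0.21). TET3 had 34 reads against 8, a ratio of 3.01 (95% counting interval 1.37 to 7.51). Its exact permutation p was 0.0286, and 0.0429 adjusted over its own 3 comparisons alone, a choice made after the data were seen. All 4 of its libraries were above all DMSO libraries. Without the filter on low counts its log2 fold change was 1.57 and was not called (edgeR adjusted p = 0.0883).

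**Figure D2:**
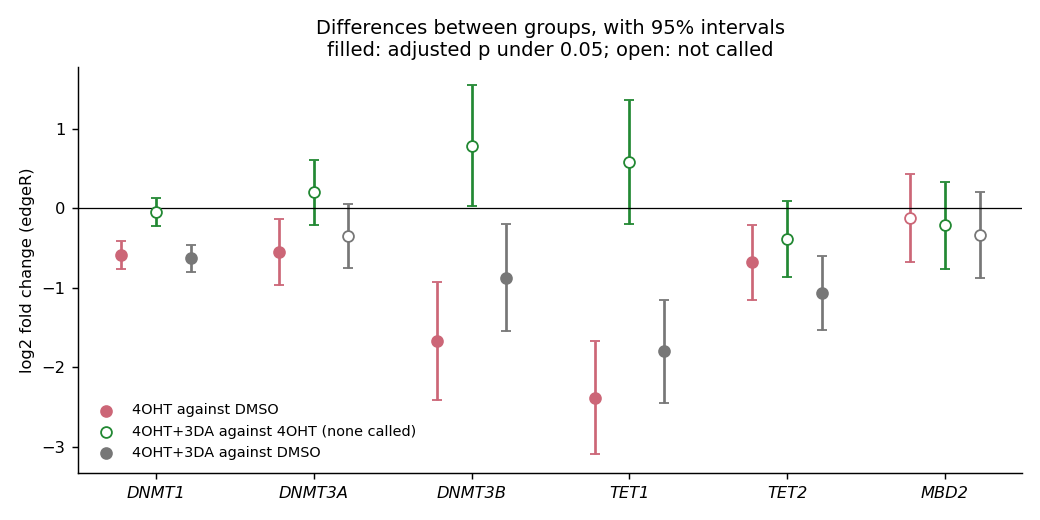
Log2 fold change of the 6 tested genes in the 3 comparisons (points), with 95% intervals from the edgeR fit; filled points passed an adjusted p under 0.05 and open points did not. The 4OHT against DMSO values lie below 0 for all 6 genes, from −2.39 for TET1 to −0.12 for MBD2, and no point of 4OHT+3DA against 4OHT is filled.

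Per kilobase of exonic sequence, the levels of the 7 genes could be set side by side. DNMT1 was the highest in every group, at 10.2 ± 0.233 CPM per kilobase with DMSO, 6.80 ± 0.623 with 4OHT and 6.61 ± 0.616 with 4OHT+3DA, and its libraries did not overlap with those of the next gene. With DMSO the order went on with DNMT3B (0.612 ± 0.137), TET2 (0.534 ± 0.156), DNMT3A (0.518 ± 0.0860), MBD2 (0.476 ± 0.105) and TET1 (0.428 ± 0.115), and each of these overlapped with its neighbour. TET3 was the lowest, at 0.0137 ± 0.0062 CPM per kilobase, below all TET1 libraries. With 4OHT the order after DNMT1 was MBD2 (0.439), DNMT3A (0.352), TET2 (0.331), DNMT3B (0.185), TET1 (0.0807) and TET3 (0.0617), with overlap at every step. With 4OHT+3DA it was DNMT3A (0.407), MBD2 (0.375), DNMT3B (0.330), TET2 (0.253), TET1 (0.125) and TET3 (0.0405); there only TET1 and TET3 did not overlap. With the longest transcript as the length, DNMT1 and TET3 stayed at the ends in every group, while the order between them changed.

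DNMT1 is known as a gene of dividing cells, so its level was set beside that of 20 S phase genes. These summed to 1446 ± 39.4 CPM with DMSO, 330 ± 15.6 with 4OHT and 659 ± 33.7 with 4OHT+3DA; all 20 fell with 4OHT, 18 rose with 3DA and 19 were still lower than DMSO. The DNMT1 level corresponded to 6.59, 7.21, 7.16 and 6.74% of that sum in the DMSO libraries. It was 20.6, 21.9, 16.97 and 21.5% with 4OHT and 9.69, 9.65, 9.47 and 10.4% with 4OHT+3DA. The 3 groups did not overlap: DNMT1 fell by much less than the S phase genes with 4OHT, and did not follow them upwards with 3DA.

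On the log2 scale the DNMT1 ratio was higher by 1.54 with 4OHT than with DMSO, and lower by 1.04 (a difference of −1.04) with 4OHT+3DA than with 4OHT. The S phase sum itself fell with 4OHT and rose with 3DA, so a gene that stayed level would give such differences too. Both differences of DNMT1 had p = 0.0286 in an exact two-sided permutation test, the smallest that 4 against 4 allows. Adjusted over 21 such tests (7 genes, 3 comparisons) it was 0.050, which is not under the threshold. With 10 mitosis genes in place of the S phase genes the adjusted value of the exact permutation test was 0.0429. A p at this floor is adjusted by how many of the tests also reach it. The lower value is therefore no added support for DNMT1. DNMT3A, with differences of 1.57 and −0.79, and TET2, with 1.47 and −1.43, gave the same p-values. So did MBD2, with 2.01 and −1.24, although its CPM was not called in either comparison. The p-values therefore do not single out DNMT1. TET3 differed by 4.23 with 4OHT (exact permutation p = 0.0286) and by −1.555 with 4OHT+3DA against 4OHT (exact permutation p = 0.0571). DNMT3B and TET1 fell with 4OHT by an amount nearer to that of the S phase genes. For DNMT3B the ratio differed by 0.22 ± 0.69 (pooled SD; exact permutation p = 0.686), and for TET1 by −0.36 ± 0.62 (exact permutation p = 0.514). The spread of these low-count genes is wide, so this does not show that they moved alike.

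**Figure D3:**
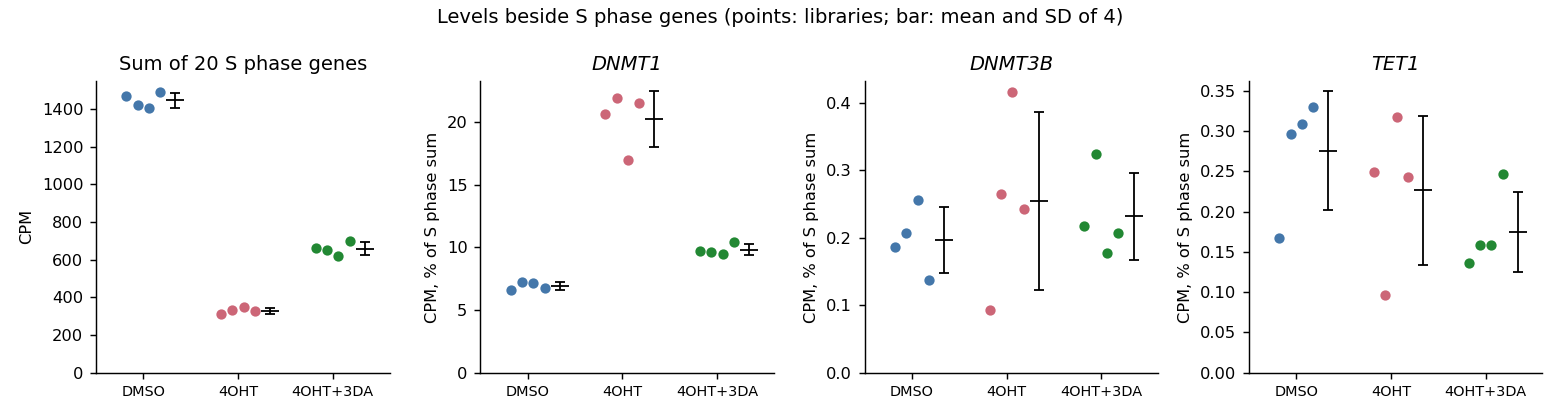
Summed CPM of 20 S phase genes, and the CPM of DNMT1, DNMT3B and TET1 as a percentage of that sum, in each library (points), with the mean and SD of 4 as a bar, on linear axes from 0. DNMT1 is at 6.92% of the sum with DMSO, 20.2% with 4OHT and 9.81% with 4OHT+3DA, without overlap, whereas the points of DNMT3B and TET1 overlap between groups.

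Most tested partners of maintenance methylation fell along with DNMT1. Of 10 listed genes, 9 were tested. With 4OHT, 7 fell and 0 rose (median log2 fold change −1.72), where 52.0% of all genes tested were called. With 4OHT+3DA against 4OHT, 6 rose and 0 fell (median 0.55), where 26.9% of all genes were called. CDCA7, which partners the remodeller HELLS, went from 20.7 ± 0.467 to 1.46 ± 0.455 CPM and then to 5.25 ± 0.673 CPM (log2 fold changes −3.80, SE 0.18, and 1.82, SE 0.19). HELLS went from 33.3 ± 2.31 to 6.54 ± 1.0 and 15.9 ± 5.4 CPM. PCLAF, a PCNA-binding protein that helps to bring DNMT1 to replicating DNA, went from 42.0 ± 5.53 to 4.22 ± 0.663 and 19.4 ± 5.08 CPM.

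The ligase LIG1 (log2 fold change −1.72, SE 0.14) and the sliding clamp PCNA (−0.71, SE 0.09) also fell with 4OHT, and both rose with 4OHT+3DA against 4OHT (0.55, SE 0.14, and 0.44, SE 0.09). UHRF2, the relative of UHRF1, fell with 4OHT from 13.9 ± 2.04 to 9.42 ± 0.664 CPM. USP7, which stabilises DNMT1, and ZBTB24 were not called in either comparison. In the methyltransferase family, DNMT3L had no read in any library. TRDMT1, which methylates tRNA in spite of its DNMT fold, fell from 9.34 ± 0.654 to 5.66 ± 0.838 CPM and rose to 8.27 ± 1.61 CPM with 4OHT+3DA (0.55, SE 0.16), a call lost when 4OHT library 24 (0.47) or 4OHT+3DA library 31 (0.40) was left out and after thinning.

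Of 7 other tested genes listed with the methyl-CpG readers, among them the relative MBD3, 2 rose and 1 fell with 4OHT. Their median log2 fold change was −0.05. Of all genes tested, 52.0% were called with 4OHT and 26.9% with 4OHT+3DA against 4OHT. MBD1 rose from 40.5 ± 2.21 to 56.4 ± 3.70 CPM (0.48, SE 0.08). ZBTB4 was lower (−0.24, SE 0.09), a call that was lost when any one of libraries 17, 19, 20, 21, 22, 23 and 30 was left out. With 4OHT+3DA against 4OHT, ZBTB33 (0.68, SE 0.17), ZBTB38 (0.29, SE 0.07) and the glycosylase MBD4 (0.28, SE 0.09) rose and MBD1 fell (−0.24, SE 0.08). MBD4 was not called when 4OHT library 21 or 4OHT+3DA library 30 was left out, nor MBD1 when any one of libraries 21, 23, 24, 29 and 31 was.

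Of 16 tested TET cofactors and base excision genes, 2 rose and 4 fell with 4OHT (median −0.08). Without 4OHT library 21, 4 rose, and with library totals 10 fell. The share of all genes called was 52.0% with 4OHT and 26.9% with 4OHT+3DA against 4OHT. IDH2, a mitochondrial source of the 2-oxoglutarate that TET enzymes use, fell from 108 ± 3.75 to 33.3 ± 1.99 CPM (−1.70, SE 0.08), and PARP1 from 144 ± 3.33 to 69.4 ± 3.53 CPM (−1.05, SE 0.07). With 4OHT+3DA against 4OHT 3 rose and 2 fell, among them CXXC5 (−0.85, SE 0.14) and IDH1 (0.36, SE 0.06). Of 11 NuRD subunits, the partners of MBD2, 1 rose and 6 fell with 4OHT (median −0.30), led by RBBP7 (−0.73, SE 0.06) and CHD3 (−0.64, SE 0.11), and 3 rose and 1, HDAC1, fell with 4OHT+3DA against 4OHT. The call of HDAC1 (−0.19, SE 0.07) ended without any one of 10 of the 12 libraries, the exceptions being 29 and 32.

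Of 5 tested genes listed with the methyl donor, 3 rose and 2 fell with 4OHT, where 52.0% of all genes were called. With 4OHT+3DA against 4OHT, 1 rose and 1, AHCYL1, fell, where 26.9% were called. The call of AHCYL1 there ended without any one of libraries 21, 22, 23, 24, 29, 30 and 31. AHCY rose with 4OHT from 129 ± 4.53 to 174 ± 8.85 CPM. AHCYL1, named for its likeness to AHCY, rose with 4OHT from 30.6 ± 2.86 to 72.1 ± 1.61 CPM. Whether AHCYL1 takes part in the methyl cycle was not tested. MAT2A, which makes S-adenosylmethionine, fell with 4OHT from 337 ± 11.4 to 248.6 ± 8.44 CPM. MAT2B, its regulatory subunit, fell with 4OHT from 124 ± 1.91 to 87.7 ± 3.24 CPM and rose to 135 ± 23.2 CPM with 4OHT+3DA (0.62, SE 0.09).

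**Figure D4:**
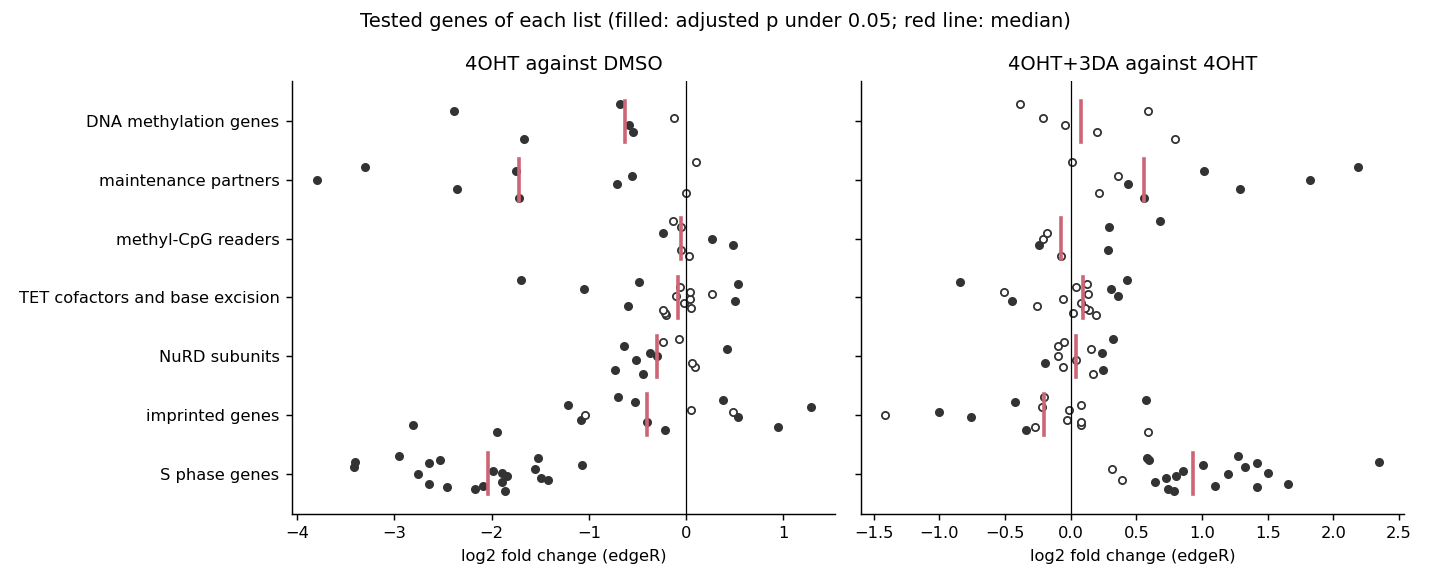
Log2 fold change of every tested gene in the lists (points), for 4OHT against DMSO on the left and 4OHT+3DA against 4OHT on the right; filled points passed an adjusted p under 0.05, and a red line marks the median of the list. All 20 S phase genes and 7 of the 9 maintenance partners are called left of 0 on the left panel, and 18 and 6 of them are called right of 0 on the right panel, with list medians of −2.03 and −1.72 and then 0.93 and 0.55, whereas the DNA methylation genes have medians of −0.63 and 0.08.

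Genes whose promoters are known to be silenced by DNA methylation gave few reads in any group. Of 24 listed germline genes, 11 had no read in any library, and the 24 summed to 3.42 to 6.16 CPM with DMSO, 5.51 to 6.31 with 4OHT and 3.11 to 4.38 with 4OHT+3DA. Only CTAG2 was tested. It went from 2.69 ± 0.599 to 4.84 ± 0.410 and 2.33 ± 0.495 CPM (log2 fold changes 0.84, SE 0.21, and −1.06, SE 0.21). Some of its reads may be shared with the related CTAG1 genes, of which CTAG1B had no read in any library. Of 15 tested imprinted genes, which methylation marks by parent of origin, 4 rose and 8 fell with 4OHT (median −0.41). Without DMSO library 17, 2 rose. The share of all genes called was 52.0% with 4OHT and 26.9% with 4OHT+3DA against 4OHT. MEST fell from 272 ± 3.52 to 38.7 ± 3.70 CPM and PHLDA2 rose from 217 ± 30.2 to 526 ± 27.8 CPM. With 4OHT+3DA against 4OHT 1 rose, PEG10 (0.57, SE 0.13), and 4 fell, including IGF2 (−1.002, SE 0.21) and SNRPN (−0.76, SE 0.17); leaving out 4OHT library 22 or 4OHT+3DA library 32 made 2 rise.

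Genes with a pattern most like each member were ranked by Pearson's r of log2 CPM over the 12 libraries, which fall into 3 groups, so r mostly reflects the group means. For DNMT1 they were MATN2 (r = 0.986), IFIT2 (0.986) and CYTH3 (0.980), all low in both 4OHT groups; IFIT2 stood at 13.5, 2.49 and 1.82 CPM. For TET1 they were NT5DC3 (0.954), NEDD9 (0.953) and PSRC1 (0.951), and for TET2 SPTLC3 (0.942), OPN3 (0.925) and SERPINB1 (0.921). For DNMT3B they were BMP4 (0.942), HPS3 (0.936) and SPATA6 (0.932), for DNMT3A ERMARD (0.905), SLC22A17 (0.895) and JRK (0.888), and for MBD2 DYNC1LI2 (0.891) and PRDM2 (0.839).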

How the data were processed

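RNA-seq libraries of IMR90 ER:RAS cells were made with Smart-Seq2 and Nextera XT, per the labels' protocols. The authors deposited 1 table of unnormalised read counts by gene. The submitters' processing notes name CASAVA 1.8.2, TopHat2 2.0.11 and featureCounts 1.18.0, and the builds hg19 and GRCh37. How multiply matching reads were counted is not given in those notes, and the kit is not strand-specific. There are no molecular identifiers, so intervals on reads cover counting error only.

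Samples were grouped by the treatment label and columns matched by name. Symbols came from a table of a newer annotation, which matched 50127 of 62069 identifiers, and 167 of 168 list entries. UHRF1 was not matched. Lengths are exonic bases in GENCODE release 29 (GRCh38), which is not the authors' build. Of the 7 matched genes, DNMT1 shares 0.847% of its exonic bases with another gene and the rest share none.

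The count test was edgeR 4.0.16 (R 4.3.3) with its quasi-likelihood model over the 12 libraries (9 residual degrees of freedom), after filterByExpr at a minimum count of 10 and TMM scaling. Benjamini-Hochberg adjustment ran over 13248 genes. The SE is the log2 fold change divided by the square root of F. The script was first tested on simulated data. Alternatives were DESeq2 1.42.0, limma-voom (limma 3.58.1), RLE factors, library totals, no filter or one at a mean CPM of 1, fitting 8 libraries alone, a threshold of 0.01, and omission of every library in turn. Thinning to 9451160 reads, the longest transcript as length, and the exact test of TET3 were added after the data were seen. Python 3.11.15, scipy 1.17.1 and matplotlib 3.10.9 served for exact tests and plots.

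The genes and lists were chosen with earlier results of these data known. Named are all listed DNA methylation genes, up to 4 called genes of each other list by size of change in a comparison (any of a list of up to 11), and the 3 genes with a symbol most alike in pattern. Some genes that this rule names are not reported here.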

Additional observations from a re-analysis of the deposited data

Results flagged for a closer look

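Of 42 groups of 4 libraries screened (7 genes in 3 groups, as CPM and as the log2 ratio to S phase genes), 4 held a library set apart from the other 3 by Dixon's test; chance sets apart about 1 in 20 groups. The 2 scales share their reads, so these are not 4 independent cases. DMSO library 17 had 12.6 CPM of TET2, where the other DMSO libraries had 7.39 to 7.73, and a TET2 log2 ratio to the S phase genes of −6.86. The same library had the lowest TET1 log2 ratio of the DMSO group, at −9.23. The 4OHT+3DA library 32 had 1.73 CPM of TET1, where the others had 0.901 to 1.03.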

How the results depend on the processing

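Each of the 18 log2 fold changes (6 genes, 3 comparisons) was recomputed in 21 alternatives. Of 378 values, 356 kept their direction and side of the threshold, 16 lost the call, 2 gained it and 4 changed sign, all 4 in differences that were not called. The cause was not tested for any of them. DNMT1 in 4OHT+3DA against 4OHT changed sign with library totals (0.0186) and ran from −0.10 to 0.00343 with single libraries left out; MBD2 in 4OHT against DMSO ran from −0.24 to 0.0081. At an adjusted p under 0.01, 3 of the 5 genes remained lower in 4OHT against DMSO and 1944 genes in all differed in 4OHT+3DA against 4OHT, where 3558 did at 0.05. With no filter on low counts, 1 gene, TET3, was higher in 4OHT against DMSO. With single libraries left out, 3 to 5 genes were lower and 0 to 1 higher in 4OHT against DMSO; 0 to 1 were higher in 4OHT+3DA against 4OHT and 0 to 1 in 4OHT+3DA against DMSO. The gene higher in 4OHT+3DA against 4OHT was DNMT3B, without 4OHT library 23; in the other comparisons it was TET3. With single libraries left out, TET3 passed the filter on low counts in 9 of 12 cases, through the groups where it is high, so those calls are no support. Library totals moved the all-gene median in 4OHT against DMSO from −0.01 to −0.17 (log2) and gave 2385 higher and 4727 lower genes, where TMM gave 3511 and 3378. In 4OHT+3DA against 4OHT the totals gave 2535 higher and 1207 lower, where TMM gave 1909 and 1649, and in 4OHT+3DA against DMSO 2798 and 4035, where TMM gave 3572 and 3253. Relative to mitosis genes, the ratio of DNMT3B in 4OHT+3DA against 4OHT turned from 0.012 to −0.27 (−0.012 with the mean of log2 CPM as reference), and that of TET1 in 4OHT against DMSO from −0.36 to 0.16. Of the alternative values of these ratios, 27 passed the threshold only with mitosis genes or the mean of log2 CPM as reference. Their adjusted p depends on how many of the tests reach the smallest p, so this is no added support. No paired analysis was possible because the groups share no replicate numbers. Read number limits TET3, TET1 and DNMT3B, which had 1 to 67 reads per library.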
